A study of Mus musculus with 14 samples.

Results

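The germinal center genes described here were Bcl6, S1pr2, Mef2b, Eaf2, Mybl1, Gpr183, Icosl, Il21 and Cd40, 9 of the 45616 genes and unnamed transcripts with a value on the arrays. They were selected on measured values, with the difference between genotypes on these same arrays in view, Eaf2 for its higher level in Sting gt/gt, so their genotype differences are given as a description, with no p-value. RNA from the spleens of 14 mice was hybridized to one-color Agilent arrays. Per the study's methods it came from splenocytes, with spleens passed through a strainer and red cells lysed. The groups were 7 WT mice of strain C57BL/6 and 7 Sting gt/gt mice, which carry the golden ticket point mutation of Sting1, made by chemical mutagenesis on C57BL/6, and lack a working STING protein. The labels give an age of 10 to 14 weeks, which per the methods was the age at immunization, and all mice had received complete Freund's adjuvant (CFA) with chicken type II collagen (CII) 2 weeks earlier, so no group without immunization was measured. Per the study's methods the WT mice were purchased and the Sting gt/gt mice came from another laboratory, so the source of the mice and the genotype cannot be told apart. The methods also place the breeding and housing of the mice at Chulalongkorn University. The scanner headers put replicates 1 to 3 of both genotypes on scan day 1 and replicates 4 to 7 on scan day 2. Within scan day 2 the 4 Sting gt/gt arrays shared slide 6 and the 4 WT arrays were on slides 4 and 5, so slide and genotype cannot be told apart there.

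In a germinal center, activated B cells of a follicle divide, mutate their antibody genes and compete for help from T follicular helper cells, and the selected cells leave as memory B cells or plasma cells. BCL6 keeps B cells and helper T cells in this program, surface receptors place the cells in the follicle, and contacts through CD40, ICOS ligand and interleukin 21 carry the T cell help. Splenocytes include many other cells, so a value here is the mean over all of them, and in such RNA fewer cells of a type and less RNA per cell cannot be told apart.

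Signals were read as log2 signal minus the 75th percentile of the array, so a value of 0 lies at that percentile. The percentile itself lay between 587 and 766 units of signal in WT and between 562 and 697 in Sting gt/gt. The 9 genes had 12 probes, and Eaf2, Icosl and Il21 had 2 probes each. Of the 9 genes, 7 were tested, each with a probe that the scanner marked well above background on 7 or more of the 14 arrays. Mef2b and Il21 were not. Among all 24908 tested genes and transcripts, 868 (3.48%) had an unadjusted limma p under 0.05 between genotypes, 464 higher and 404 lower in Sting gt/gt, and 1 (0.00401%) passed after adjustment. That split depended on scaling, with 250 higher and 568 lower after median centering, 149 and 614 with no scaling, and 423 and 526 after quantile normalization. The unadjusted count went to 1967 when Sting gt/gt replicate 1 was left out, to 539 when replicate 5 of that genotype was, and to 496 when its replicate 6 was. The adjusted count was 6 without WT replicate 4.

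Of the 9 tested probes, the brighter Eaf2 probe had the largest difference between genotypes, 0.99 log2 units, and the dimmer Eaf2 probe followed at 0.29. The other 6 tested genes had differences between -0.15 and 0.02, beside a median of 0.02 over all tested genes. Of the 7 tested genes 3 had a higher mean in Sting gt/gt, Eaf2, S1pr2 and Cd40, and for S1pr2 and Cd40 that sign was reversed with no scaling, at -0.03 and -0.05, and for Cd40 also with median centering, at -0.01. The plot of signals by genotype shows how widely single mice varied around these means.

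**Figure D1:**
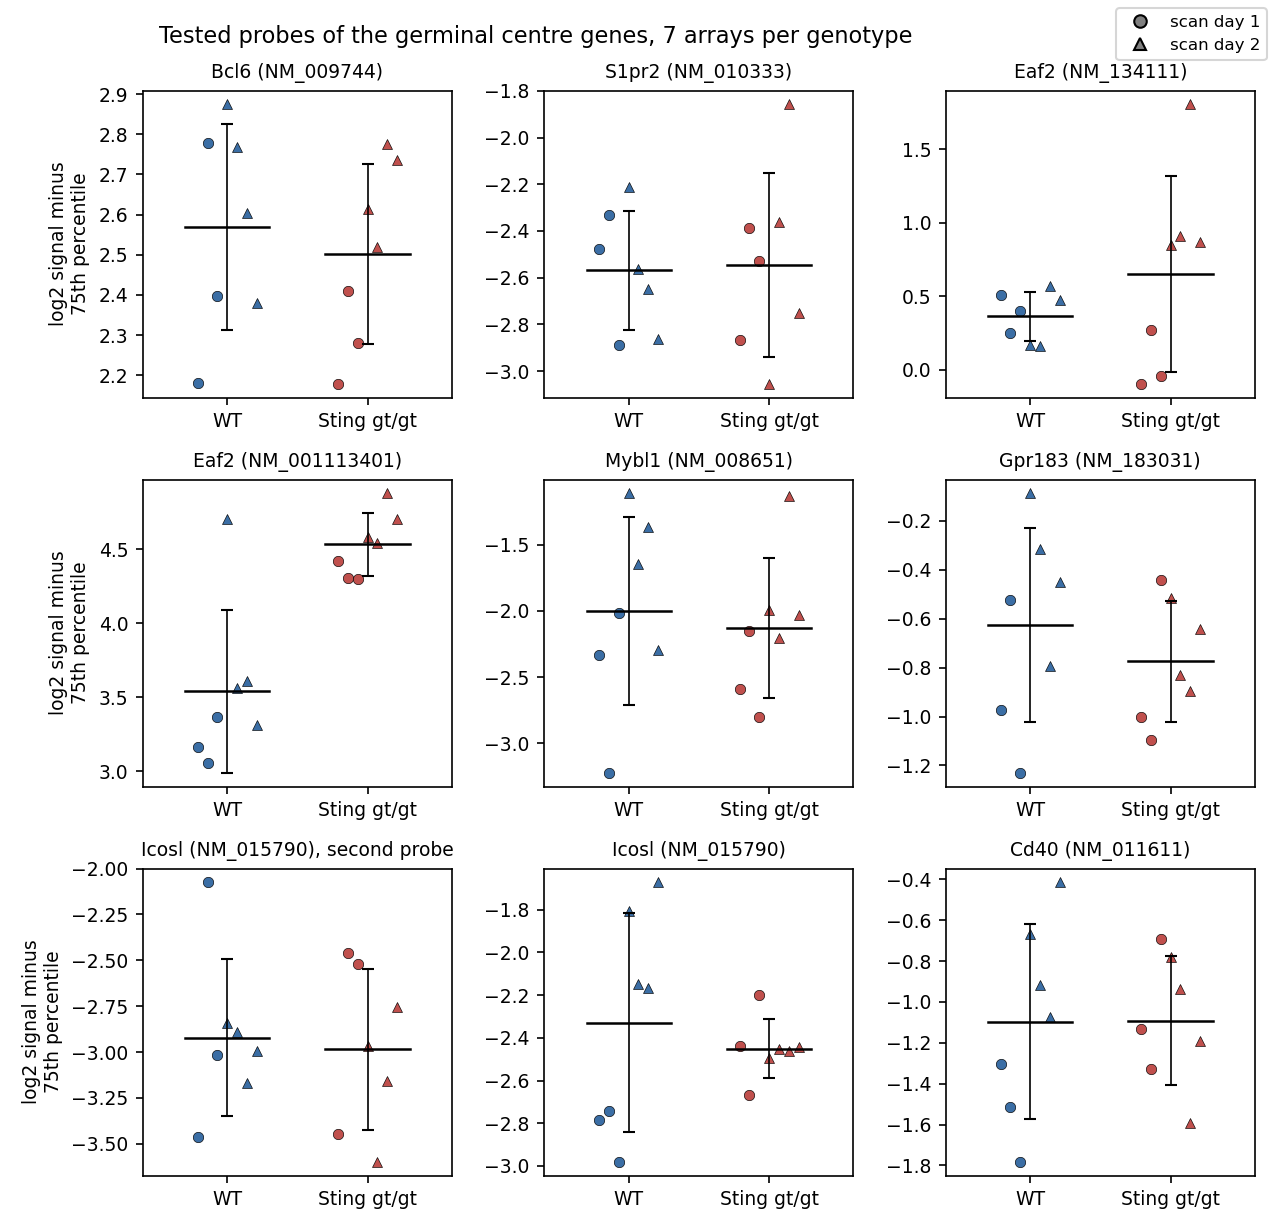
Log2 signal minus the 75th percentile of the array (y axis) for the 9 tested probes of the germinal center genes in WT and Sting gt/gt, 7 arrays each, with circles for scan day 1, triangles for scan day 2, and bars for the mean and SD. WT replicate 4, at 4.70 on the brighter Eaf2 probe, lies within the Sting gt/gt arrays, which run from 4.30 to 4.88.

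Eaf2 encodes ELL-associated factor 2, which binds the ELL elongation factors of RNA polymerase II and is known in mice for promoting the death of germinal center B cells. The gene lies on the minus strand of chromosome 16, at chr16:36792884-36875068 (GRCm38). The RefSeq table holds 3 start windows for it, each from 250 bases before to 50 bases after a start. They are shown because the 2 probes of the gene, assigned to different transcripts, gave different patterns. Which start belongs to which probe is not in the table. Promoter windows were found for 7 of the 9 genes, 10 windows in all, with none for Mybl1 and Cd40. All sequences are from RefSeq (GRCm38.p6), minus strand, written 5′ to 3′. Capitals mark matches on either strand to the motifs searched. The GAS-type motif was TTCNNNGAA. The BCL6-type motif was TTCCTNGAA, and each match to it is a GAS-type match too. The TATA box was searched as TATAAA. The letters of the CCAAT box are its name, and on the opposite strand it reads ATTGG.
Eaf2 start A, chr16:36874777-36875076: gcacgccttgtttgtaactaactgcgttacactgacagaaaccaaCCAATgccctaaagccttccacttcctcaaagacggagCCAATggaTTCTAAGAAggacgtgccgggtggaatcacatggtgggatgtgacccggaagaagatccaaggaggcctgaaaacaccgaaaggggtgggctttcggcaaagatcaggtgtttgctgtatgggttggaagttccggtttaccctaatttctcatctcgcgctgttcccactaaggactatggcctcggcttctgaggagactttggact
Eaf2 start B, chr16:36828210-36828509: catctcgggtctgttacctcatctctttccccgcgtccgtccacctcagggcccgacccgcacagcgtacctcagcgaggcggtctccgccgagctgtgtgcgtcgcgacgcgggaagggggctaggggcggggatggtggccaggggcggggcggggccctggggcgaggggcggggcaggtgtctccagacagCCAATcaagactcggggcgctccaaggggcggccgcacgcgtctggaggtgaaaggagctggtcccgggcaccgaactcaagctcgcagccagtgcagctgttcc
Eaf2 start C, chr16:36808656-36808955: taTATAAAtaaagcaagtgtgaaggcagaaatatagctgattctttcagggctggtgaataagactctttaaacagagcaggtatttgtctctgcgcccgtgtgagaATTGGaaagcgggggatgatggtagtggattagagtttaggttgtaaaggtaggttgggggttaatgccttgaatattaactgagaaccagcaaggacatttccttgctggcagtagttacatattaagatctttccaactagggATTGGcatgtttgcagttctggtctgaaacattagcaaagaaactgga

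The 3 Eaf2 windows differed in base composition, with 51.0% G and C at start A, 70.7% at start B and 41.0% at start C, beside a median of 52.7% over all windows. Start A held a GAS-type match, which 8.30% of the 32851 windows of all genes held, and start C a TATA box, which 13.6% held. CCAAT boxes were found in all 3 Eaf2 windows and in 37.4% of all windows. Start B overlaps the window of Iqcb1 on the plus strand, chr16:36828150-36828449. A match is a description of the letters and says nothing of what binds there.

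The brighter Eaf2 probe, A_55_P2102621, is assigned to transcript NM_001113401. In WT its lowest, median and highest log2 signals were 3.06, 3.37 and 4.70, and in Sting gt/gt they were 4.30, 4.55 and 4.88. The groups overlapped through a single array, WT replicate 4, since the other 6 WT arrays reached no higher than 3.61 and left a gap of 0.69 to the lowest Sting gt/gt array. The difference of the means was 0.99 ± 0.21 (SE, n = 7 per genotype), a 1.99-fold higher signal in Sting gt/gt, and it was 1.19 without WT replicate 4. Within scan day 1 the difference was 1.15 and within scan day 2 it was 0.88. In the deposited series table it was 0.95, where WT replicate 4 again stood at 13.88 log2 units, the other WT arrays at up to 12.85 and the lowest Sting gt/gt array at 13.53. The SD was 0.55 in WT and 0.21 in Sting gt/gt, and 0.22 in WT without replicate 4.

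The dimmer Eaf2 probe, A_51_P323583, is assigned to transcript NM_134111 and gave another pattern. Its lowest, median and highest log2 signals were 0.16, 0.40 and 0.57 in WT and -0.10, 0.85 and 1.81 in Sting gt/gt. Here it was the Sting gt/gt arrays that spread, with an SD of 0.67 against 0.17. The difference of the means was 0.29 ± 0.25 (SE, n = 7 per genotype), 0.10 without Sting gt/gt replicate 6 and 0.15 in the deposited series table, and it turned to -0.33 with slide as a fixed term and -0.04 with slide as a random term. Within scan day 1 it was -0.34. Within scan day 2 it was 0.76, and all 4 Sting gt/gt arrays, from 0.85 up, lay above all 4 WT arrays, at up to 0.57. Those 4 Sting gt/gt arrays were all on slide 6, which held no WT array. On that scan day 23.3% of all tested genes had an unadjusted limma p under 0.05. How many of all genes separated fully there was not counted. WT replicate 4, so high on the brighter Eaf2 probe, read 0.17 on the dimmer one. When the 2 probes were averaged, the Eaf2 difference was 0.64.

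The distance between the 2 Eaf2 probes within each array is not changed by anything that shifts an array as a whole. The signal of NM_001113401 minus that of NM_134111 averaged 3.18 in WT and 3.88 in Sting gt/gt, a difference of 0.70. The 6 WT arrays other than replicate 4, which stood at 4.53, reached at most 3.40. On scan day 1 the 3 Sting gt/gt arrays ran from 4.04 to 4.52, and on scan day 2 the other 4 ran from 3.07 to 3.83, so that the genotype difference in this distance was 1.49 on the first scan day against 0.12 on the other, or 0.48 there without WT replicate 4. The SD of this distance was 0.64 in WT and 0.48 in Sting gt/gt. The arrays do not say which RNA each probe bound.

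**Figure D2:**
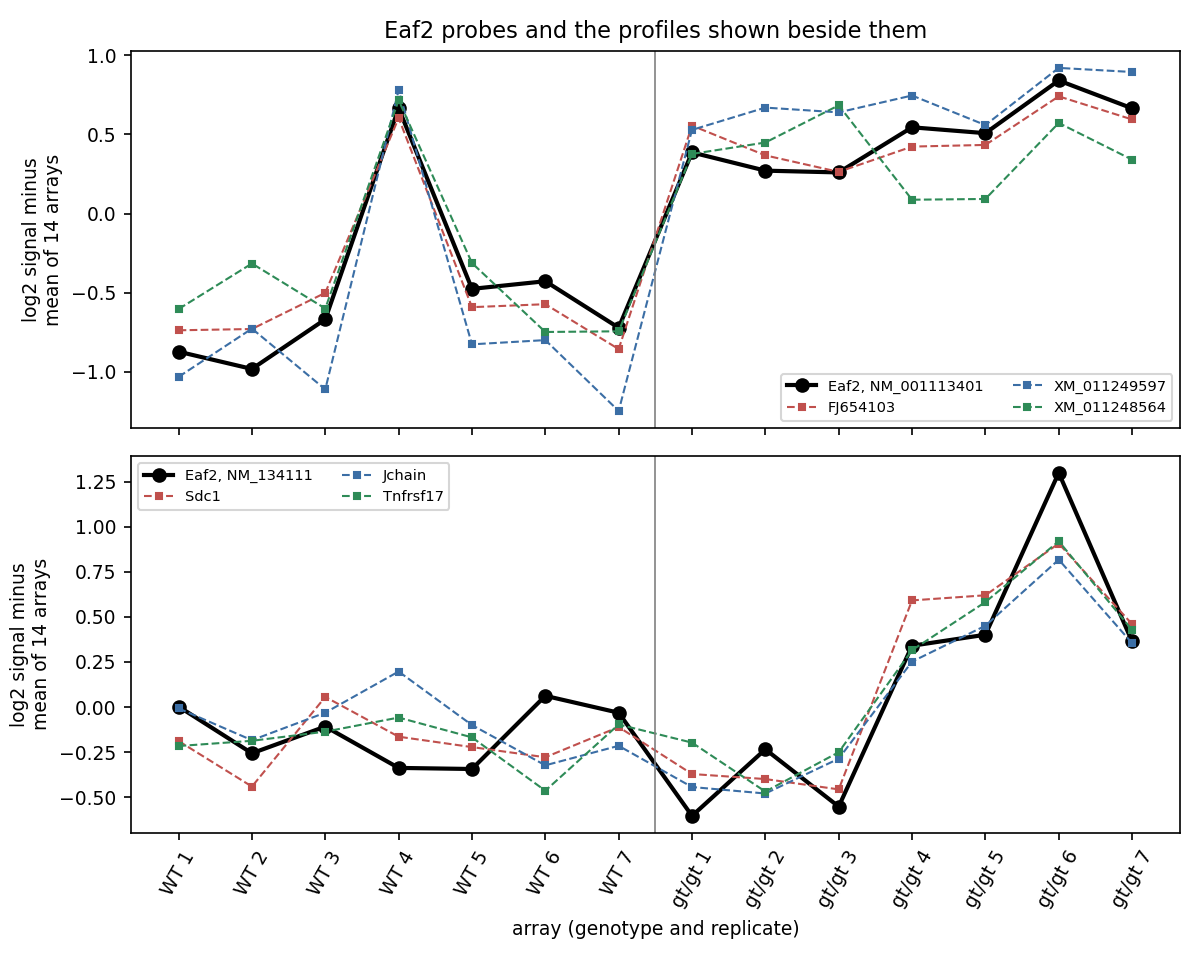
Log2 signals of the Eaf2 probes over the 14 arrays, each centered on its own mean (y axis, log2 units), with the 3 transcripts nearest to the brighter probe and 3 plasma cell markers near the dimmer, lines only joining the points of a gene. The brighter probe stands high in WT replicate 4 and in the 7 Sting gt/gt arrays, and the dimmer probe in Sting gt/gt replicates 4 to 7.

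Likeness to the brighter Eaf2 probe was measured as the root mean square difference of centered log2 signals over the 14 arrays, where Eaf2's own root mean square was 0.63. The 5 nearest genes with a symbol were Dnaaf3 and Cirbp and Pgam2, each at 0.37, Omg at 0.38 and Pira2 at 0.39. The unnamed transcript FJ654103, chosen after its values were seen, was far nearer, at 0.13. Its signal was 5.96 in WT replicate 4, at most 4.85 in the other WT arrays, and from 5.62 to 6.10 in Sting gt/gt. XM_011249597, likewise chosen after its values were seen, lay at 0.30, with 4.03 in WT replicate 4, at most 2.52 in the other WT arrays and from 3.78 to 4.17 in Sting gt/gt. XM_011248564, also picked in that way, lay at 0.32, with 4.41 in WT replicate 4, at most 3.38 in the other WT arrays and from 3.78 to 4.38 in Sting gt/gt. WT replicate 4 stood within or above the Sting gt/gt arrays on all 3 transcripts, which the choice by likeness favors.

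The dimmer Eaf2 probe had nearer neighbors among named genes, all 5 chosen after their values were seen. With Eaf2's own root mean square at 0.47, Akr1c18 and Sdc1 lay at 0.21, Derl3 at 0.22, and Hsp90b1 and Tmem164 at 0.24. Sdc1 encodes syndecan 1, the usual surface marker of plasma cells, and is 1 of 5 plasma cell markers on a fixed list. In the order of likeness over all tested genes Sdc1 was number 2, Tnfrsf17 number 13, Jchain number 15, Xbp1 number 109 and Mzb1 number 1813. The mean of the 5 markers lay at 0.25 from this probe, and the mean of 6 B cell markers at 0.66.

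All 5 plasma cell markers had a higher mean in Sting gt/gt, by a median of 0.19, a sign they kept under each scaling tried, and none passed an unadjusted limma p under 0.05. Within scan day 2 all 5 were higher in Sting gt/gt and within scan day 1 a single marker was. Lower on scan day 1 and higher on scan day 2 were 4 of the 5 and 29.3% of all tested genes. Their mean log2 signal ran from 1.75 to 2.07 in WT, from 1.58 to 1.74 in Sting gt/gt on scan day 1, and from 2.28 to 2.77 in Sting gt/gt on scan day 2. Their summed signal, in units of the 75th percentile, ran from 81.0 to 105 in WT and from 68.6 to 154 in Sting gt/gt, with Jchain the brightest. Sting gt/gt replicate 6 was the highest array for 5 of 5 markers, for each of the 2 Eaf2 probes and for 6.93% of all tested genes. Their part in the Eaf2 result was not tested.

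Genes beside Eaf2 on chromosome 16 had smaller estimated differences, though that of Slc15a2 was too imprecise to set apart from one of Eaf2's size. Toward lower coordinates, Slc15a2 differed by 0.49 ± 0.52, Ildr1 by -0.12 ± 0.32 and Cd86 by 0.13 ± 0.13 (SE, n = 7 per genotype). Toward higher coordinates, Iqcb1, which lies inside the span of Eaf2, differed by 0.07, Golgb1 by -0.06 and Hcls1 by 0.09. None of the 6 passed an unadjusted limma p under 0.05. Iqcb1 starts beside Eaf2 start B, and its signal in WT replicate 4, -0.92, was the highest of the WT arrays, with the others at up to -1.07.

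The partners of Eaf2 in elongation were read from a list of 13 genes, all tested. In Sting gt/gt 3 had a higher and 10 a lower mean, with a median of -0.12 beside 0.02 over all tested genes, or 2 and 11 with no scaling and 5 and 8 with normexp background correction. None passed an unadjusted limma p under 0.05, and 1, Aff4, chosen after its values were seen, did without WT replicate 1, 3 or 7 or without Sting gt/gt replicate 4 or 6. Aff4 also passed with the replicate block, scan day as a term or slide as a random block. It passed as well with no scaling, the percentile of detected probes, the series table and the methods' test. Eaf1, the close relative of Eaf2, differed by -0.10 ± 0.17 (SE, n = 7 per genotype). The ELL family, whose proteins EAF2 binds, gave 0.03 for Ell, whose sign turned with no scaling, -0.13 for Ell2 and -0.14 for Ell3, each within its spread over all arrays. Ell2 differed by -0.50 within scan day 1 and 0.15 within scan day 2, and Ell3 by 0.21 and -0.41. Ell2 passed an unadjusted limma p under 0.05 within scan day 1 and with slide as a fixed term, and Ell3 within scan day 2.

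**Figure D3:**
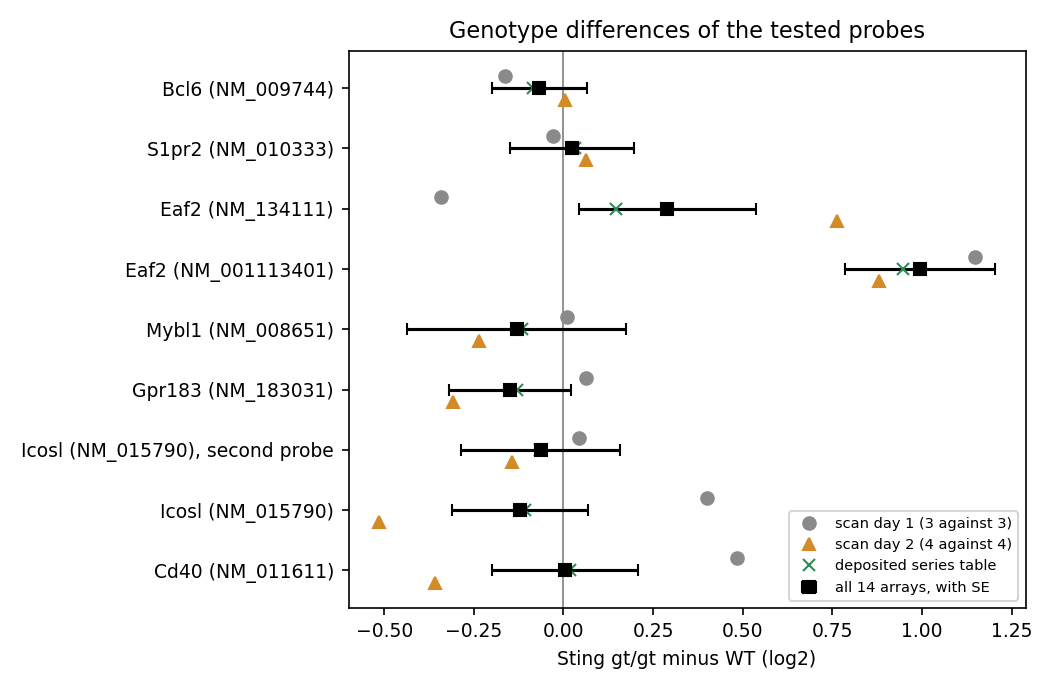
Difference between Sting gt/gt and WT (x axis, log2 units) for the 9 tested probes, with squares and SE for 7 arrays per genotype, circles and triangles for scan days 1 (3 against 3 arrays) and 2 (4 against 4), and crosses for the deposited series table. The brighter Eaf2 probe stands at 0.99 and every other gene's reading over all arrays lies between -0.15 and 0.02. Of the 9 probes, 8 change sign between scan days, all but the brighter Eaf2 probe, whose gene was chosen for its rise. Of all tested genes, 30.5% turn from higher to lower in Sting gt/gt between scan days and 29.3% from lower to higher.

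Bcl6, the repressor that defines the germinal center program, lies at chr16:23965050-23988866, on the same chromosome as Eaf2. The window before its inner start is shown because it held the only BCL6-type match in the 10 windows, with GAS-type and BCL6-type letters in capitals. It is from RefSeq (GRCm38.p6), minus strand, 5′ to 3′.
Bcl6 start B, chr16:23981234-23981533: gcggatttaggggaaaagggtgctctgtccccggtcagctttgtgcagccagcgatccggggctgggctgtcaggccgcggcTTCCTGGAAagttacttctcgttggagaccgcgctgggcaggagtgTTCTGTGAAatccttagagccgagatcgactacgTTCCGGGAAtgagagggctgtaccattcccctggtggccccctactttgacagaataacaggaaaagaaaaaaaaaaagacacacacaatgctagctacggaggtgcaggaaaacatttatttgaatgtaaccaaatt
Such a BCL6-type match was held by 1.59% of all windows, and the outer Bcl6 window held a GAS-type match as well.

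Bcl6 signals were 2.18, 2.60 and 2.87 in WT (lowest, median and highest) and 2.18, 2.52 and 2.77 in Sting gt/gt. The groups covered each other almost wholly. The difference was -0.07 ± 0.13 (SE, n = 7 per genotype). Its range over the 14 arrays, 0.70, was the smallest among the tested probes. Mybl1 encodes A-MYB, a transcription factor of dividing germinal center B cells (chr1:9667407-9700439). Its signals were -3.22, -2.01 and -1.11 in WT and -2.80, -2.15 and -1.13 in Sting gt/gt, a difference of -0.13 ± 0.31 (SE, n = 7 per genotype). That was a range of 2.11 over the arrays, the widest of the tested probes, and its sign changed to 0.05 with slide as a fixed term. Mef2b, a factor that activates Bcl6 (chr8:70152761-70167488), was well above background on 0 WT arrays and 1 Sting gt/gt array, replicate 6, so no fold is given.

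The receptors that place B cells act in opposite ways. S1pr2 holds B cells in the germinal center, and Gpr183, also called EBI2, draws activated B cells to the outer follicle before they enter. S1pr2 (chr9:20965952-20976793) read -2.89, -2.56 and -2.21 in WT and -3.05, -2.53 and -1.86 in Sting gt/gt. Its difference of 0.02 ± 0.17 (SE, n = 7 per genotype) was far inside the spread and became -0.03 with no scaling, -0.02 with array weights and -0.05 with slide as a fixed term. Gpr183 (chr14:121952331-121965193) read -1.23, -0.52 and -0.09 in WT and -1.09, -0.83 and -0.44 in Sting gt/gt. The difference was -0.15 ± 0.17 (SE, n = 7 per genotype), at 0.06 within scan day 1 and -0.31 within scan day 2. Neither receptor separated the genotypes.

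ICOS ligand and CD40 are carried by B cells and meet ICOS and CD40 ligand on T follicular helper cells. Icosl (chr10:78069368-78079525) read -2.98, -2.17 and -1.67 in WT on its brighter probe and -2.67, -2.45 and -2.20 in Sting gt/gt. The difference was -0.12 ± 0.19 (SE, n = 7 per genotype), and the SD was 0.51 in WT against 0.14 in Sting gt/gt. It was 0.40 within scan day 1, -0.51 within scan day 2, 0.32 with slide as a fixed term, -0.29 with array weights and -0.05 with normexp background correction. The WT arrays of scan day 1 all lay below those of scan day 2. The other Icosl probe, to the same transcript, differed by -0.06 ± 0.22, with 0.04 and -0.14 on the 2 scan days, so it did not share that turn in size. Cd40 (chr2:165055614-165071654) read -1.78, -1.07 and -0.42 in WT and -1.59, -1.13 and -0.69 in Sting gt/gt. Its difference of 0.0035 ± 0.20 (SE, n = 7 per genotype) took the opposite sign with no scaling, with median centering and with the percentile of well detected probes, and was -0.11 with array weights, and it was 0.48 within scan day 1 and -0.36 within scan day 2. No test is given of how the genotype differences of Icosl and Cd40 changed between scan days, since the genotype contrast selected these genes.

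B cell markers turned the same way between scan days as Icosl and Cd40. All 6 markers were higher in Sting gt/gt within scan day 1 and lower within scan day 2, with medians of 0.32 and -0.51, a pattern that 30.5% of all tested genes showed. None of the 6 passed the test of genotype by scan day, with limma adjusted p from 0.0981 to 0.180, a test that 0.767% of all genes passed. Their summed signal, in units of the 75th percentile, ran from 74.1 to 135 in WT and from 74.7 to 118 in Sting gt/gt, with Cd79b the brightest. Over both scan days 6 of 6 were lower in Sting gt/gt, by a median of -0.17, also under each other scaling tried, and none passed an unadjusted limma p under 0.05. Their part in the readings of Icosl and Cd40 was not tested.

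Interleukin 21 is the cytokine by which T follicular helper cells act on germinal center B cells. The 2 probes of Il21 (chr3:37222759-37232636) were well above background on 0 WT arrays each and, for 1 of them, on 1 Sting gt/gt array, which was again replicate 6 at -3.92. No fold is given. Cd40lg, the T cell partner of Cd40, was not well above background on enough arrays to be tested either.

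Some germinal center genes differed widely between mice of a genotype, and how many of all genes do so was not counted. Rgs13, a regulator of G protein signaling in germinal center B cells, chosen after its values were seen, spanned 3.17 log2 units over the 14 arrays. Its SD was 1.23 in WT and 0.58 in Sting gt/gt, beside a difference of the means of -0.18. Its signals were -4.51, -2.23 and -1.34 in WT and -3.58, -2.86 and -1.92 in Sting gt/gt. WT replicate 4 was highest and WT replicate 2 lowest for both Rgs13 and Mybl1. Nuggc, also chosen after its values were seen, was highest in Sting gt/gt replicate 6. Over the 12 probes of the 9 genes, Sting gt/gt replicate 6 was the highest array for 5 and WT replicate 4 for 3. Those 5 include Mef2b and 1 Il21 probe, each well above background on that array alone. Among the 7 tested genes, Sting gt/gt replicate 6 was highest for 2. Sting gt/gt replicate 6 was the highest array for 5 of the 20 germinal center B cell genes and for 6.93% of all tested genes. WT replicate 4 was highest for 4 of those 20 and 5.62% of all tested genes, and WT replicate 3 for 3 and 7.35%.

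**Figure D4:**
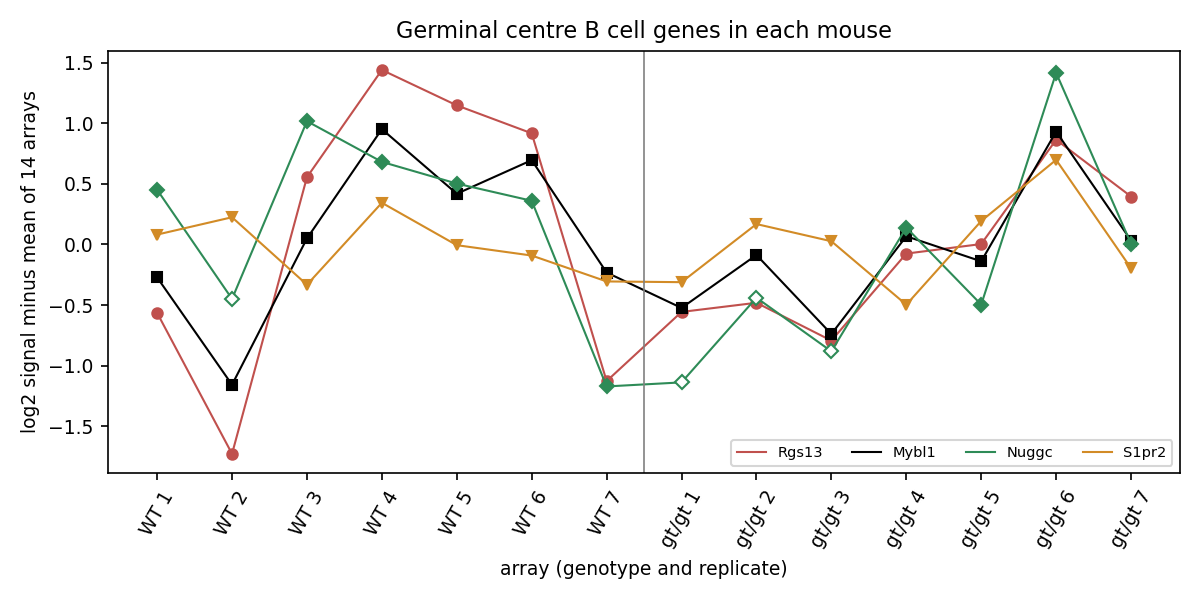
Log2 signal centered on the mean of the 14 arrays (y axis) for Rgs13, Mybl1, Nuggc and S1pr2 across the 14 arrays, with lines only joining the points of a gene and open markers where the probe was not well above background. Rgs13, Mybl1 and Nuggc stand high in Sting gt/gt replicate 6, Rgs13 and Mybl1 are lowest in WT replicate 2 and Nuggc in WT replicate 7, and neither genotype holds only high or only low arrays.

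The other genes of the germinal center reaction were read from 5 fixed lists of 74 genes, of which 73 were tested. In Sting gt/gt 24 had a higher and 49 a lower mean, with a median of -0.06 beside 0.02 over all tested genes. The split was 15 and 58 with no scaling. A single gene, Ascl2, had an unadjusted limma p under 0.05, or 1.37% beside 3.48% of all tested genes. Ascl2 encodes a factor that starts the T follicular helper program. It read -3.77, -3.49 and -3.32 in WT and -3.48, -3.30 and -2.73 in Sting gt/gt, a difference of 0.36 ± 0.13 (SE, n = 7 per genotype) with a limma adjusted p of 0.9998, and it did not pass when slide was a random or fixed term. The count was 3 without WT replicate 6 or 7 or without Sting gt/gt replicate 1, and 2 without WT replicate 3 or without Sting gt/gt replicate 3, 4 or 5.

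By role, the 20 germinal center B cell genes held 9 higher and 11 lower, with a median of -0.05, or 5 and 15 with no scaling. Among them Fas, a death receptor, differed by 0.08 ± 0.16, and Gcsam, which restrains the movement of germinal center B cells, by -0.10 ± 0.17 (SE, n = 7 per genotype). The 15 tested T follicular helper genes held 5 higher and 10 lower, or 3 and 12 with no scaling and 7 and 8 with normexp background correction. Cxcr5, the receptor that leads cells into follicles, differed by -0.27 ± 0.19, Icos by -0.02 and Pdcd1 by -0.05. The 15 niche and positioning genes held 6 higher and 9 lower, or 8 and 7 with normexp background correction, and Cxcl13, the ligand of CXCR5, differed by 0.11 ± 0.18. The 14 partners and counter-regulators of BCL6 held 3 higher and 11 lower, with Prdm1, which drives plasma cells, at -0.16 ± 0.18 and Irf4 at -0.08 ± 0.15. The 9 CD40 signaling genes held 1 higher and 8 lower. Cxcr5 passed an unadjusted limma p under 0.05 with array weights, within scan day 2, at -0.59, and without WT replicate 3, and Pdcd1 did with slide as a fixed term.

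Of the other marker lists, T cell markers had 4 of 6 higher, but 1 of 6 with no scaling, macrophage and monocyte markers 3 of 5, or 2 with no scaling, neutrophil markers 5 of 6, dendritic cell markers 3 of 6, or 2 with no scaling, and NK cell markers 4 of 4 higher in Sting gt/gt. Proliferation markers were lower for 6 of 6. Among the erythroid markers, 2 of 5 were higher, or 1 of 5 after quantile normalization. At an unadjusted limma p under 0.05, 1 of these markers passed, lower in Sting gt/gt, and none passed after adjustment.

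The difference between scan days, another contrast than the genotype, was tested with limma beside genotype, although the genotype differences that chose the genes had also been read within each scan day. Every slide was read on a single scan day, and this fit treated the arrays as independent, with no term for slide. Slide and scan day therefore cannot be told apart. Of all tested genes, 9659 (38.8%) passed an adjusted p under 0.05, 4269 (17.1%) higher and 5390 (21.6%) lower on scan day 2, when 8 arrays were read against 6 on scan day 1. Of the 7 tested germinal center genes, 4 passed, and all 7 were higher on scan day 2, with a median of 0.35 beside -0.01 over all tested genes. The split of all genes turned with scaling, to 7844 higher and 3371 lower after median centering, where the median of all genes was 0.17, and to 5576 and 4546 after quantile normalization. With no filter on dim probes the median of all genes was -0.21. With a call in 38.8% of all genes, a count of 4 in 7 says little about these genes in particular.

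Mybl1 had the largest scan day difference of the 7, 0.80 ± 0.23 (SE, n = 14, limma adjusted p = 0.015). Eaf2 differed by 0.47 ± 0.17 (SE, n = 14, limma adjusted p = 0.047), under its genotype difference in size. Icosl differed by 0.43 ± 0.16 (SE, n = 14, limma adjusted p = 0.042) and Bcl6 by 0.29 ± 0.11 (SE, n = 14, limma adjusted p = 0.048). The sign of S1pr2 was unsteady, at -0.03 with normexp background correction, -0.01 with array weights, and down to -0.06 when WT replicate 3 or 4 or Sting gt/gt replicate 1 or 6 was left out. Gpr183 at 0.31, Cd40 at 0.35 and S1pr2 at 0.04 did not pass, with limma adjusted p of 0.12, 0.16 and 0.87. In the deposited series table, 0 of all tested genes passed the same limma test, and so 0 of the 7 genes did. There 348 genes had an unadjusted limma p under 0.05, beside 11777 in the scanner values. That is fewer than this threshold gives where scan days do not differ at all. The normalization of that table is not stated, so the loss of calls there is no check on the scan day differences. The differences were smaller there, at 0.31 for Mybl1, 0.10 for Eaf2, 0.09 for Icosl and 0.03 for Bcl6. The count of 4 was also unsteady to single arrays. It was 1 without WT replicate 1, 3, 5 or 6 or without Sting gt/gt replicate 2. It was 2 without WT replicate 2 or 4 or without Sting gt/gt replicate 1, 4, 6 or 7. The reason was not tested.

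Cell type markers differed between scan days as well, where 38.8% of all genes passed. The 5 plasma cell markers were all higher on scan day 2, 4 of them at a limma adjusted p under 0.05, with a median of 0.51. Their summed signal, in units of the 75th percentile, ran from 68.6 to 86.2 on scan day 1 and from 81.0 to 154 on scan day 2, with Jchain the brightest. All 6 neutrophil markers were lower on scan day 2, or 4 of 6 after quantile normalization, and 4 passed, with a median of -0.58. Their summed signal ran from 1127 to 1624 on scan day 1 and from 620 to 997 on scan day 2, with S100a9 the brightest. All 5 erythroid markers were lower, by a median of -0.44, and 2 passed, but 2 of 5 were higher after quantile normalization or median centering and 5 of 5 in the series table. Their summed signal ran from 1150 to 1462 on scan day 1 and from 743 to 903 on scan day 2, with Hba-a1 the brightest. Dendritic cell markers were higher for 5 of 6, or 3 of 6 with normexp background correction, with 2 passing higher and 1 lower, and their summed signal, with Siglech the brightest, ran from 145 to 183 on scan day 1 and from 37.1 to 51.7 on scan day 2. All 4 NK cell markers passed, 3 higher and 1 lower, with a median of 0.55. Their summed signal ran from 8.57 to 16.6 on scan day 1 and from 12.7 to 28.8 on scan day 2, with Gzma the brightest. B cell markers were higher for 5 of 6, or 4 of 6 with normexp background correction, with a median of 0.23, and 1 passed. Their summed signal ran from 74.1 to 118 on scan day 1 and from 74.7 to 135 on scan day 2, with Cd79b the brightest. T cell markers were higher for 3 of 6, or 5 of 6 after median centering, with 2 passing higher and 1 lower. Macrophage and monocyte markers were higher for 3 of 5, or 4 of 5 after quantile normalization or median centering, and 1 passed, lower. Proliferation markers were higher for 2 of 6, or 4 of 6 after either of those, and 1 passed, higher. In the series table these counts were 6 of 6, 5 of 5 and 5 of 6. The part of these cell types, and of anything else that differed between the sets of arrays, in the scan day differences of the 7 genes was not tested.

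**Figure D5:**
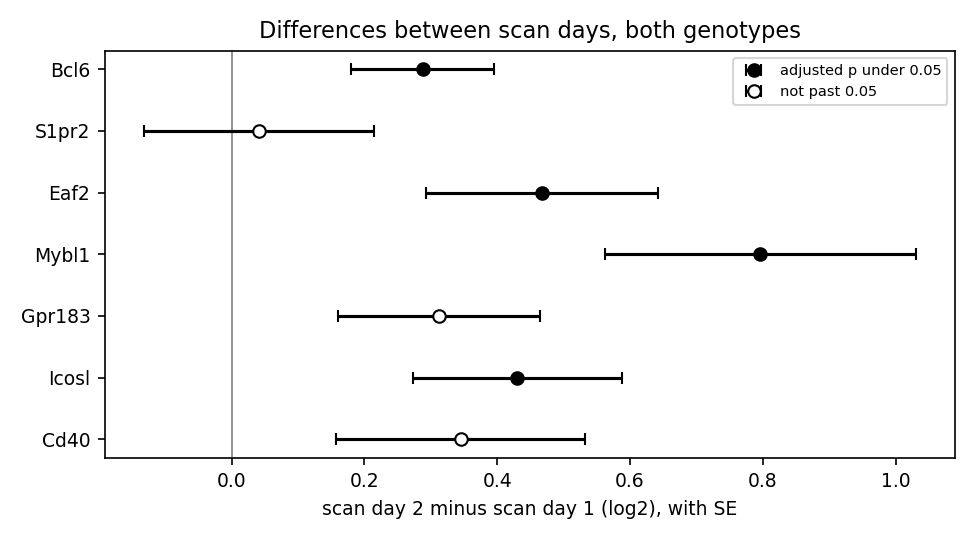
Difference between scan day 2 and scan day 1 (log2 units) with its SE for the 7 tested germinal center genes, 6 arrays against 8, from limma with genotype as a term. All 7 lie above 0, from 0.04 for S1pr2, whose sign turned with normexp background correction, with array weights and with any of 4 arrays left out, to 0.80 for Mybl1, with filled points where the limma adjusted p was under 0.05.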

How the data were processed

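Splenocyte RNA of 7 WT and 7 Sting gt/gt mice was read on one-color Agilent arrays. Per the file headers the authors extracted each array with Agilent Feature Extraction 11.0.1.1, and the deposited scanner values are background-corrected intensity, not normalized between arrays. The deposited series table holds log2 values whose normalization is not stated. Log2 intensity minus each array's 75th percentile was used here. Spots with outlier marks were dropped, replicate spots averaged, and 31766 of 56605 probes tested, those well above background on 7 or more of 14 arrays. The tested probe of highest mean stood for its gene, named by RefSeq accession (GRCm38.p6). Genotype was fitted with limma 3.58.1 in R 4.3.3, and scan day with genotype as a term. Tables were made with pandas 2.3.3 and numpy 2.4.6 under Python 3.11.15, and plots with matplotlib 3.10.9. Same-numbered replicates shared deviations across genes, at correlations of 0.16 to 0.53, but of -0.41 to 0.25 once scan day means were removed, and a replicate block was tried as well. Other alternatives were the scaling, background correction, filter, probe choice, array weights, slide and scan day terms, and leaving out each array.

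The members and lists were chosen with earlier results of these data known. Named were the 9 genes, a fixed set of germinal center genes whatever their values, list genes with an unadjusted p under 0.05, Eaf1 and the ELL genes, the 3 nearest tested genes on each side of Eaf2, and the 5 genes most like its brightest probe. Other genes named are cell type markers or are marked in the text as chosen after their values were seen. The number of arrays limits the precision.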

Additional observations from a re-analysis of the deposited data

Results flagged for a closer look

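In 80 groups of 7 arrays, 3 held an array far from the other 6 by Dixon's test, which chance gives in about 1 in 20 groups, so 3 in 80 is no more than chance gives. They are listed as values only. WT replicate 4 read 4.70 on the brighter Eaf2 probe, against 3.06 to 3.61 in the other WT arrays. WT replicate 6 read -2.07 for the plasma cell marker Tnfrsf17, against -1.82 to -1.67 in the other WT arrays. Sting gt/gt replicate 3 read -0.25 for Eaf1, against 0.31 to 0.72 in the others of its genotype.

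A difference between scan days stood out for the plasma cell marker Sdc1, whose genotype difference was 1.06 ± 0.18 (SE) larger on scan day 2 than on scan day 1 (limma adjusted p = 0.036 for genotype by scan day). It was -0.22 within scan day 1 and 0.84 within scan day 2, where 4 of 4 Sting gt/gt arrays shared a slide. The other 4 plasma cell markers did not pass that test, with limma adjusted p from 0.0598 for Jchain to 0.970 for Mzb1, while 191 (0.767%) of all tested genes did. Sdc1 is also a near match of the dimmer Eaf2 probe, so its turn between scan days is no separate support for that probe's pattern.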

How the results depend on the processing

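The brighter Eaf2 probe stayed higher in Sting gt/gt under every setting that read it alone, from 0.88 to 1.15, and from 0.91 to 1.19 with any array left out, and the mean of both Eaf2 probes gave 0.64. The genotype differences of the other 6 tested members, given with no test, changed sign under at least 1 setting each. Between scan days, 30.5% of all tested genes turned from higher to lower in Sting gt/gt and 29.3% from lower to higher. The scan day calls of members were lost under settings and left-out arrays, 17 times for Bcl6, 14 each for Eaf2 and Icosl and 1 time for Mybl1. The deposited series table, where no gene at all was called for scan day, is among those settings and is no check on these calls. Genes next to Eaf2 with an unadjusted limma p under 0.05 were 0 under every setting.

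Counts of all genes with an unadjusted p under 0.05, 868 as reported, were 1928 in the deposited series table, 4360 with array weights, 1416 with the replicate block, 1812 with scan day as a term, 445 with slide as a random block and 5805 within scan day 2. Leaving out an array gave 496 to 1967. The adjusted count of 1 became 0 with median centering, no scaling, the replicate block or slide as a fixed block, 2 with probe means, 4 with array weights and 422 within scan day 2, and 1 to 6 with an array left out. The cause was not tested.

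Other germinal center genes past the unadjusted threshold, 1 as reported, were 2 with quantile normalization, no scaling, the percentile of detected probes, the replicate block or scan day as a term, 3 in the series table and with slide as a fixed block, 4 within scan day 1, 6 with array weights and 11 within scan day 2, and 1 to 3 with an array left out. As shares of the 73 these were 5.48% within scan day 1 beside 3.86% of all genes, 8.22% with array weights beside 17.5%, and 15.1% within scan day 2 beside 23.3%. Elongation partners, 0 as reported by limma, were 1 with no scaling, the percentile of detected probes, the series table, the methods' test, the replicate block, scan day as a term, slide as a random or fixed block, and within either scan day, 2 with array weights, and 0 to 1 with an array left out.

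Icosl moved to 0.32 with slide as a fixed block, 0.40 within scan day 1 and -0.51 within scan day 2, and was -0.29 with array weights and -0.05 with normexp correction, and Cd40 to 0.48 within scan day 1. The slide block estimates genotype from 5 arrays on slides 1 and 2. Scan day calls, 9659 as reported, were 0 in the series table, and 14599 with no filter on dim probes. Members called for scan day, 4 as reported, were 0 in the series table, 1 with the percentile of detected probes or no filter, 2 with normexp correction, 3 with quantile normalization, no scaling or probe means, and 6 with median centering or array weights, and 1 to 4 with an array left out. Of all tested genes, 4269 were called higher and 5390 lower as reported. With median centering the calls were 7844 and 3371, and with array weights 5193 and 6215. They were 3927 and 5611 with the percentile of detected probes, and 3972 and 10627 of 45616 with no filter. Normexp correction gave 3847 and 5469, and quantile normalization 5576 and 4546. No scaling gave 3487 and 4332, and probe means 3866 and 5410.

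Limits: 7 mice per genotype, a single time after immunization, genotype tied to the source of the mice and, on scan day 2, to slides. Signals near background, as for Mef2b and Il21, carry no fold. Splenocyte RNA does not resolve germinal centers. Each gene rests on 1 or 2 probes, whose target sequences were not examined.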
